A study of Mus musculus with 12 samples.

Results

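10 genes of extracellular matrix turnover were followed in mouse skeletal muscle: the matrix metalloproteinases Mmp2, Mmp3, Mmp10 and Mmp14, the related protease Adamts1, the protease inhibitors Timp1, Timp2 and Timp3, and the crosslinking enzymes Lox and Loxl1. They were named by symbol, with earlier results of these data known, and each was represented by the brightest of the probe sets annotated to it. All 10 passed the signal filter and belong to the 11345 genes tested. The study measured muscle RNA of 12 mice on one-colour Affymetrix arrays, one array per mouse, with 3 mice in each of 4 groups. These were GPR120 knockout mice on high fat diet (KO HFD) or normal diet (KO ND), and wild-type mice on high fat diet (WT HFD) or normal diet (WT ND). All mice were 16 weeks old and on a mixed 129/Sv and C57BL/6 background. GPR120, the product of Ffar4, is a receptor for long-chain fatty acids. The labels call the mutant line GPR120 KO and say nothing more of the allele. Which muscle was taken, the sex of the mice and how long they were fed are not stated in the labels.

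The muscle fibre is wrapped in a matrix of collagens, laminins and proteoglycans that is made largely by fibroblasts. Metalloproteinases are secreted or membrane-bound zinc enzymes that are made as inactive precursors and cut these proteins. Tissue inhibitors of metalloproteinases (TIMPs) bind the active enzymes and block them, and lysyl oxidases crosslink collagen and elastin fibres. In muscle this machinery is known for its part in repair, in the growth of capillaries and in fibrosis.

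The deposited values are log2 signals, and every difference below is a log2 difference with its standard error (SE) from one limma model over the 12 arrays. A gene was called when its Benjamini-Hochberg adjusted p over the 11345 genes was under 0.05. Array medians lay between 3.87 and 4.16. Ffar4 could not check the genotype labels, because its probe set averaged 1.61, below the filter of 3.78, and its means were 2.31 in KO HFD, 2.48 in KO ND, 1.41 in WT HFD and 0.23 in WT ND. The 6 skeletal muscle markers (Ckm, Acta1, Mylpf, Tnnt3, Myh4 and Mb) all passed the filter. On the linear scale their summed signal was 79046 to 86231 in KO HFD, 70153 to 86927 in KO ND, 78806 to 91682 in WT HFD and 74804 to 78395 in WT ND. The mouse numbers of the 4 groups cover separate ranges, so diet or genotype cannot be told apart from cohort. The bulk RNA also does not tell fewer cells of a type from less RNA per cell.

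Of the 10 genes, the stromelysin Mmp10 and the lysyl oxidase Lox fell on the high fat diet in WT muscle, and no member was called in KO muscle, between genotypes on either diet, or in the interaction. KO HFD had the highest group mean for 7 of the 10 genes (Mmp2, Mmp3, Mmp14, Adamts1, Timp1, Timp2 and Loxl1), and WT HFD had the lowest for 7 (Mmp3, Mmp10, Mmp14, Adamts1, Timp1, Lox and Loxl1). When the 4 group means of each gene were put in order, 29 of the 30 neighbouring pairs had overlapping values, and over all tested genes 10.2% of such pairs did not overlap. The exception was Mmp3, whose KO HFD values all lay above those of the next group, WT ND.

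**Figure D1:**
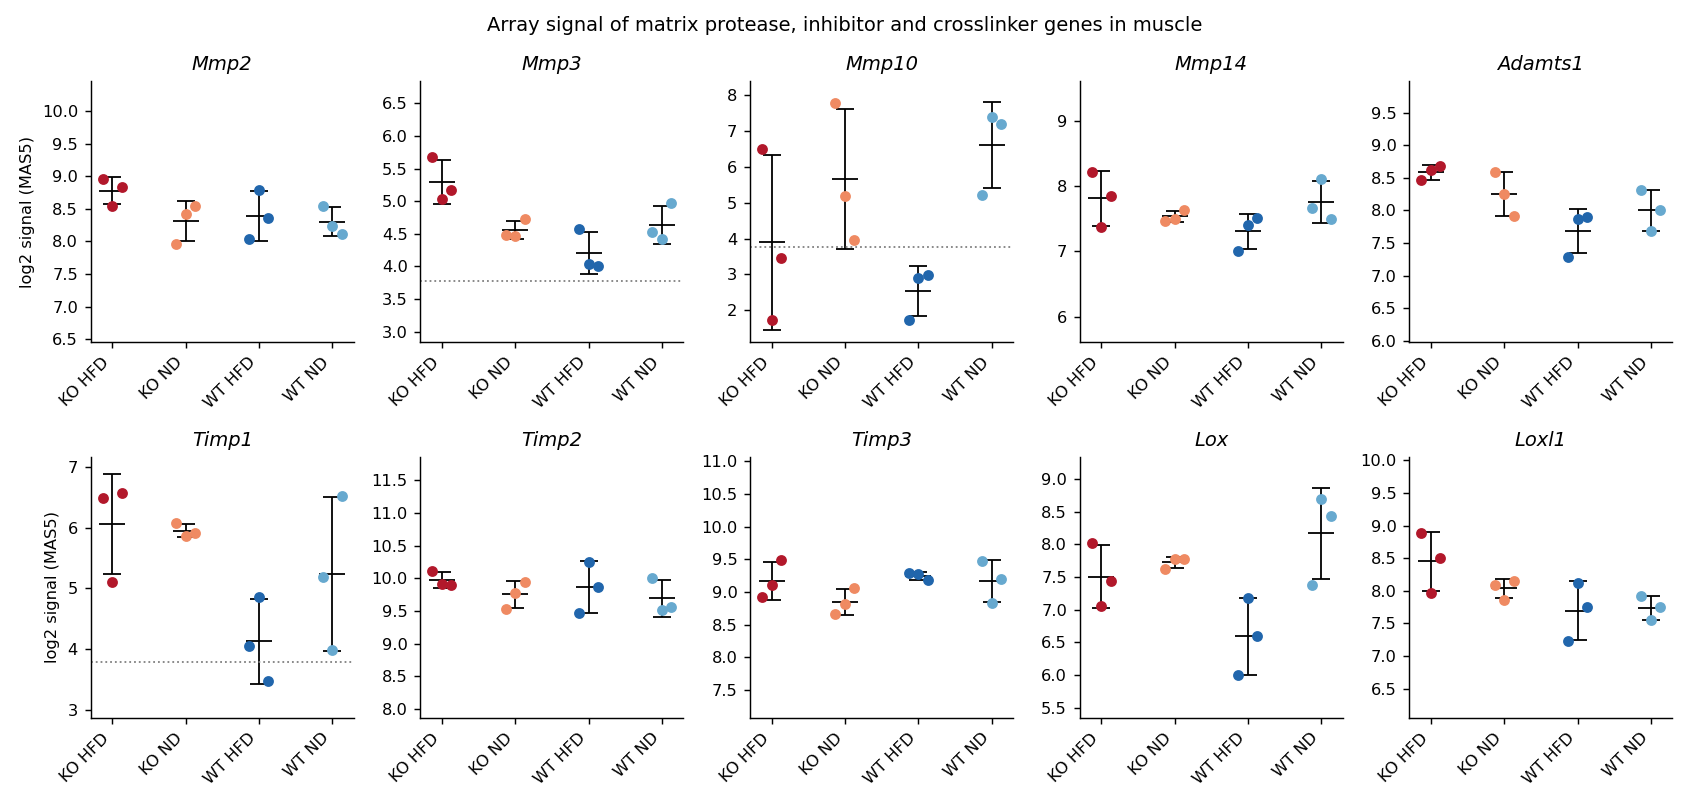
Log2 signal of each of the 10 genes (vertical axis) in the 4 groups (horizontal axis). Points are single mice, horizontal bars with whiskers are the mean ± SD of 3 mice, and the dotted line, drawn where it falls within the panel, is the signal filter of 3.78. Mmp10 in WT HFD lies wholly under that line and under all WT ND values, Lox in WT HFD lies under WT ND, and Mmp10 is widely spread in both KO groups.

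The stromelysins Mmp3 and Mmp10 are close relatives that cut proteoglycans, laminin and fibronectin and can activate other metalloproteinases. In GRCm38.p6 both lie on chromosome 9 with Mmp1a as the only protein-coding gene between them. Promoter sequences from RefSeq (GRCm38.p6, 250 bases before to 50 after the annotated start, in the direction of the gene) were matched for 7 of the 10 members. They were lacking for Mmp2, Lox and Loxl1. The binding motif of AP-1, the dimer of Fos and Jun proteins known to drive stromelysin genes, was searched as TGAGTCA on both strands. It was found in 2 of the 7, Mmp3 and Mmp10, and in 5.2% of all 32851 promoters of the same length. Those 2 promoters are shown because the pair shares the motif and the chromosome but only 1 of the pair was called; capitals mark the AP-1 letters.
Mmp3, chr9:7445572-7445871, plus strand: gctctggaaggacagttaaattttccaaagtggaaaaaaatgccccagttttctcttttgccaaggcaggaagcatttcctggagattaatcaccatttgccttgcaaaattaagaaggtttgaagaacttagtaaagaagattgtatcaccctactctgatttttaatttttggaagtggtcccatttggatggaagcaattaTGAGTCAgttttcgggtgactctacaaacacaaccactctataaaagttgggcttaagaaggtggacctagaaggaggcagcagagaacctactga
Mmp10, chr9:7502092-7502391, plus strand: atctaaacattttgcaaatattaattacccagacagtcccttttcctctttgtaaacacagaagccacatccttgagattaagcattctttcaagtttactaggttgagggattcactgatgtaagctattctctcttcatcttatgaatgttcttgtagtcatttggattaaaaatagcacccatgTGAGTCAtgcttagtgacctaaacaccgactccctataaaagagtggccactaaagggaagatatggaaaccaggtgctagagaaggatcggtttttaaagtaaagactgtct
The AP-1 letters begin 46 bases before the annotated start of Mmp3 and 63 bases before that of Mmp10. TATAAA, the core of a TATA box, begins 7 bases before the start of Mmp3 and 29 bases before that of Mmp10, and does not overlap the AP-1 letters in either. TATAAA on either strand was found in 13.6% of all promoters. AGGAAG, a core of ETS factor sites, was also searched on both strands; it begins 183 bases before the start of Mmp3, is not in the Mmp10 window, and was found in 35.35% of all promoters. A match is a string of letters and shows no binding.

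Mmp10 signals were 6.52, 1.71 and 3.45 in KO HFD mice, 7.80, 5.19 and 3.97 in KO ND mice, 1.73, 2.89 and 2.98 in WT HFD mice, and 5.23, 7.41 and 7.21 in WT ND mice. In WT every HFD value lay below every ND value, while in KO the diets overlapped and each KO group held 1 mouse far above its other mice. In WT, Mmp10 was lower on high fat diet by a log2 difference of −4.08 (SE 1.10, 95% interval −6.45 to −1.71, n = 3 per group, limma adjusted p = 0.0447). All 3 WT HFD values were below the filter of 3.78, where MAS5 signals are noisy, so the size of the fall is uncertain. With an offset of 16.5 added to the linear signals the difference was −2.39 (adjusted p = 0.0600). In KO the difference was −1.76 (SE 1.10, 95% interval −4.13 to 0.61, adjusted p = 0.404). The interaction, the KO diet difference minus the WT one, was 2.32 (SE 1.56, adjusted p = 0.630), so the diet effects were not shown to differ. Averaged over genotypes the diet difference was −2.92 (SE 0.78, adjusted p = 0.0256). That call was lost without WT ND replicate 2 or 3, WT HFD replicate 1, KO ND replicate 1 or KO HFD replicate 2 or 3 (−2.81 to −2.38, adjusted p from 0.0515 to 0.0648), without an intensity trend (0.0580) and after adjustment for RNA integrity, taken as the log2 distance between the 3′ and 5′ control probe sets of beta-actin and Gapdh (0.103).

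The WT call for Mmp10 lay close to the threshold and depended on which mice were kept. It was lost without WT ND replicate 2 (adjusted p = 0.164), WT ND replicate 3 (0.141), WT HFD replicate 1 (0.122), WT HFD replicate 2 (0.0920) or WT HFD replicate 3 (0.0757). It was also lost without KO ND replicate 2 (0.0595) or KO HFD replicate 3 (0.0600), which enter only through the pooled spread. The difference itself lay between −4.77 and −3.68 when any 1 mouse was left out. With the RNA integrity adjustment it was −4.83 (adjusted p = 0.136). That RNA integrity measure ran from −0.08 to 0.09 in WT ND and from 0.16 to 0.20 in WT HFD, without overlap. In KO the diets overlapped in it. The adjustment therefore cannot cleanly separate RNA integrity from diet in WT.

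Mmp3 was called in no comparison. Its signals were 5.68, 5.04 and 5.17 in KO HFD mice, 4.49, 4.46 and 4.72 in KO ND mice, 4.57, 4.04 and 4.0 in WT HFD mice, and 4.52, 4.42 and 4.96 in WT ND mice. The KO HFD values stood above those of the other 3 groups, which overlapped one another. The diet difference was 0.74 in KO (SE 0.29, adjusted p = 0.171) and −0.43 in WT (SE 0.29, adjusted p = 0.404). The interaction of 1.17 (SE 0.41, adjusted p = 0.355) had the lowest adjusted p of the 10 members and was not called.

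Mmp2, the gelatinase that cuts type IV collagen and is made by fibroblasts, was called in no comparison. Its signals were 8.95, 8.55 and 8.84 in KO HFD mice, 7.97, 8.43 and 8.55 in KO ND mice, 8.03, 8.80 and 8.35 in WT HFD mice, and 8.54, 8.24 and 8.11 in WT ND mice. In KO the lowest HFD value and the highest ND value were both 8.55 after rounding, without overlap before it, and the WT diets overlapped. The diet difference was 0.47 in KO (SE 0.20, adjusted p = 0.215) and 0.09 in WT (SE 0.20, adjusted p = 0.832). The second Mmp2 probe set gave 0.65 in KO and 0.10 in WT.

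Mmp14, the membrane metalloproteinase that activates the Mmp2 precursor together with Timp2, read 8.22, 7.38 and 7.85 in KO HFD mice, 7.47, 7.50 and 7.63 in KO ND mice, 7.0, 7.40 and 7.52 in WT HFD mice, and 7.67, 8.11 and 7.49 in WT ND mice. In the probe set used, the groups overlapped on both diets and in both genotypes. The diet difference was 0.28 in KO (SE 0.21, adjusted p = 0.502) and −0.45 in WT (SE 0.21, adjusted p = 0.228). Its 3 probe sets had the same signs, with 0.51 and 0.11 in KO and −1.17 and −0.66 in WT for the dimmer ones. None of these was called when each probe set was tested on its own among 19387. The dimmest, near the filter of 3.78, read 4.14 to 4.33 in KO HFD, 3.11 to 4.04 in KO ND, 2.84 to 3.81 in WT HFD and 4.17 to 5.05 in WT ND. There neither the diets of a genotype nor the genotypes on a diet overlapped, though no comparison was called. In the other unused probe set KO ND values reached 5.08, while WT ND began at 5.12.

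Adamts1, a secreted protease that cuts the proteoglycans aggrecan and versican, separated the genotypes on high fat diet without being called. It read 8.46, 8.63 and 8.68 in KO HFD mice and 7.29, 7.87 and 7.90 in WT HFD mice, which did not overlap. On normal diet the values overlapped, at 8.59, 8.26 and 7.92 in KO mice and 8.31, 7.68 and 8.0 in WT mice. The KO minus WT difference was 0.90 on high fat diet (SE 0.21, 95% interval 0.46 to 1.35, adjusted p = 0.0597) and 0.26 on normal diet (SE 0.21, adjusted p = 0.702). The first of these missed the threshold in the reported fit. It passed with the offset (0.85, adjusted p = 0.0492) and without WT HFD replicate 2 (0.99, adjusted p = 0.0469), and over all alternatives its adjusted p lay between 0.0469 and 0.187.

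Timp1, the TIMP known to be induced by inflammatory signals, separated the genotypes on high fat diet without being called. Its signals were 6.49, 5.11 and 6.57 in KO HFD mice, 6.07, 5.86 and 5.91 in KO ND mice, 4.05, 4.86 and 3.47 in WT HFD mice, and 5.19, 3.99 and 6.52 in WT ND mice. On high fat diet all KO values were above all WT values, while on normal diet the WT values spread across the KO range. The KO minus WT difference was 1.93 on high fat diet (SE 0.55, 95% interval 0.74 to 3.12, adjusted p = 0.117) and 0.72 on normal diet (SE 0.55, adjusted p = 0.687). Averaged over diets it was 1.32 (SE 0.39, adjusted p = 0.109), and 1.65 without WT ND replicate 3 (adjusted p = 0.0314). The diet difference was 0.11 in KO (adjusted p = 0.942) and −1.11 in WT (SE 0.55, adjusted p = 0.255).

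Timp2, which holds the Mmp2 precursor on Mmp14, and Timp3, the TIMP that binds to the matrix and also inhibits ADAM proteases, were called in no comparison. Timp2 averaged 9.97 ± 0.12 in KO HFD, 9.76 ± 0.21 in KO ND, 9.87 ± 0.39 in WT HFD and 9.69 ± 0.28 in WT ND (SD, n = 3 each). Timp3 averaged 9.17 ± 0.29 in KO HFD, 8.84 ± 0.20 in KO ND, 9.25 ± 0.06 in WT HFD and 9.16 ± 0.32 in WT ND (SD, n = 3 each). In the probe sets used, the values of both genes overlapped between the diets of each genotype and between the genotypes on each diet. The diet difference of Timp2 was 0.22 in KO (95% interval −0.18 to 0.61, adjusted p = 0.558) and 0.17 in WT (95% interval −0.22 to 0.57, adjusted p = 0.624). That of Timp3 was 0.33 in KO (95% interval −0.04 to 0.69, adjusted p = 0.312) and 0.08 in WT (95% interval −0.28 to 0.45, adjusted p = 0.826). Timp2 had 5 probe sets past the filter, and their diet differences ran from −0.18 to 0.47 in KO and from −0.16 to 0.17 in WT. The 4 probe sets of Timp3 ran from −0.04 to 0.33 in KO and from −0.02 to 0.20 in WT. Some of the probe sets not used had groups without overlap, though none was called. In another Timp2 probe set KO ND values reached 9.43, while KO HFD began at 9.57 and WT ND at 9.52. In another Timp3 probe set KO HFD values reached 9.13, while WT HFD began at 9.16. In a dimmer Timp3 probe set KO ND values reached 6.997, while WT ND began at 7.008.

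Lox, which oxidises lysines of collagen and elastin so that the fibres crosslink, fell on the high fat diet in WT muscle. Its signals were 8.02, 7.06 and 7.44 in KO HFD mice, 7.63, 7.78 and 7.77 in KO ND mice, 6.00, 7.19 and 6.59 in WT HFD mice, and 7.38, 8.69 and 8.44 in WT ND mice. All WT HFD values were below all WT ND values, and the KO diets overlapped. The WT difference was −1.58 (SE 0.34, 95% interval −2.31 to −0.84, adjusted p = 0.0185), a signal 2.99-fold lower on high fat diet. The KO difference was −0.22 (SE 0.34, 95% interval −0.96 to 0.52, adjusted p = 0.772). The interaction of 1.36 (SE 0.48, adjusted p = 0.361) was not called. Averaged over genotypes Lox was lower by −0.90 on high fat diet (SE 0.24, adjusted p = 0.0267). That call was lost without WT ND replicate 2 or 3, WT HFD replicate 1, KO ND replicate 2 or KO HFD replicate 2 or 3 (−0.89 to −0.75, adjusted p from 0.0563 to 0.0687) and without an intensity trend (0.0590).

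A second probe set of Lox was also called in WT. It read 5.08 to 5.29 in KO HFD, 5.59 to 5.84 in KO ND, 4.28 to 5.17 in WT HFD and 5.69 to 6.65 in WT ND. Its WT difference was −1.48 (SE 0.27, adjusted p = 0.00887 among 19387 probe sets) and its KO difference was −0.54 (SE 0.27, adjusted p = 0.316). Here the KO diets did not overlap, unlike in the brighter probe set. The third Lox probe set was below the filter. The WT call of the brighter probe set was lost without WT ND replicate 2 (−1.32, adjusted p = 0.0868), WT ND replicate 3 (−1.44, adjusted p = 0.0735) or WT HFD replicate 1 (−1.28, adjusted p = 0.0661). It held after the adjustment for RNA integrity (−2.15, adjusted p = 0.0316), a measure that did not overlap between the WT diets.

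Loxl1, the lysyl oxidase relative needed for elastic fibre renewal, was called in no comparison. It read 8.88, 7.97 and 8.50 in KO HFD mice, 8.09, 7.86 and 8.15 in KO ND mice, 7.23, 8.11 and 7.75 in WT HFD mice, and 7.92, 7.56 and 7.74 in WT ND mice. The diets overlapped in both genotypes. The diet difference was 0.41 in KO (SE 0.23, adjusted p = 0.353) and −0.04 in WT (SE 0.23, adjusted p = 0.938). The KO minus WT difference on high fat diet was 0.75 (SE 0.23, adjusted p = 0.142), with overlapping values. A second, much dimmer probe set gave 0.27 (SE 0.89) there.

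**Figure D2:**
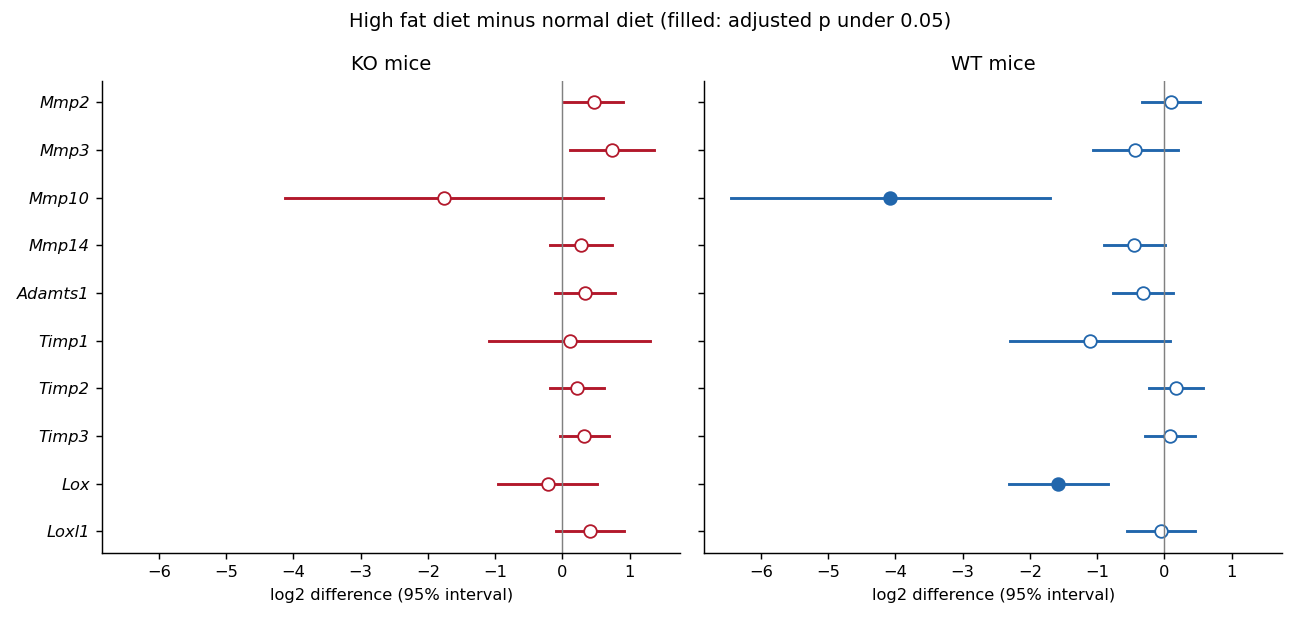
Log2 difference of high fat minus normal diet (horizontal axis) for the 10 genes (vertical axis) in KO and WT mice, 3 mice per group. Lines are 95% intervals not adjusted for multiple tests, and filled points have an adjusted p under 0.05. Mmp10 (−4.08) and Lox (−1.58) in WT are the filled points, and the KO panel has none.

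**Figure D3:**
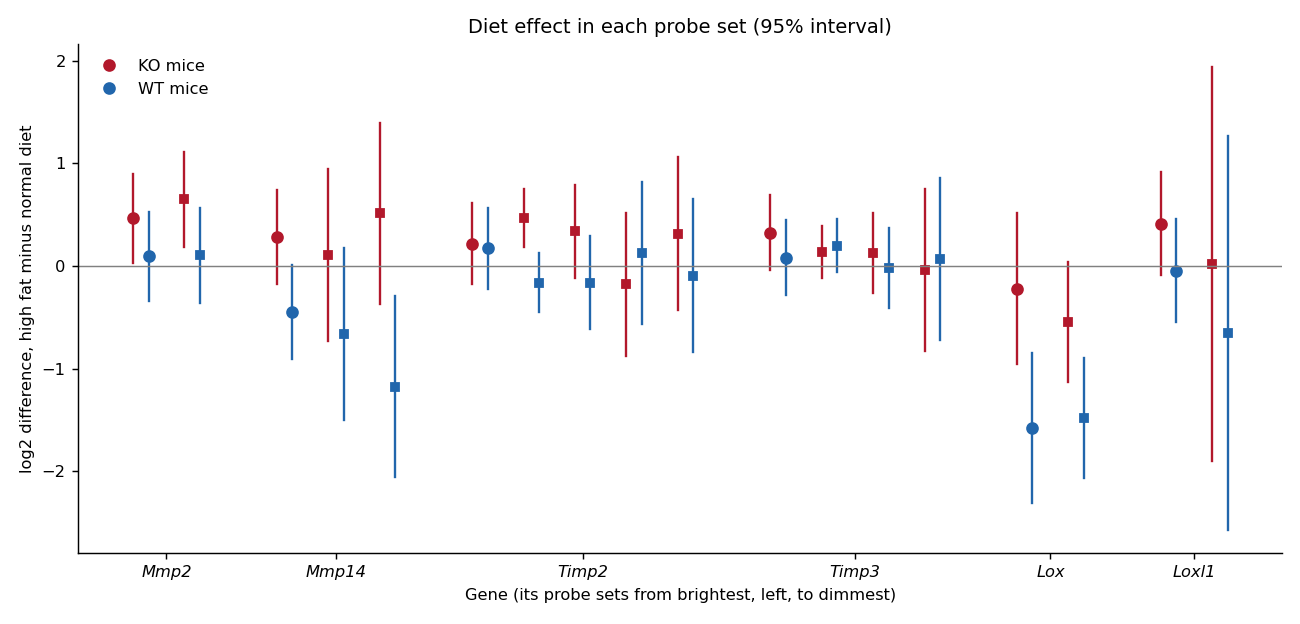
Log2 difference of high fat minus normal diet (vertical axis) in every probe set past the filter of the 6 genes that have several, from the brightest to the dimmest within each gene (horizontal axis). Circles are the probe sets used for the gene, squares the others, red KO, blue WT, and lines 95% intervals not adjusted for multiple tests. Both Lox probe sets lie below 0 in WT, at −1.58 and −1.48, while all Timp2 and Timp3 probe sets lie between −0.18 and 0.47.

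The high fat diet effect in WT called 2 of the 10 members, both lower, where 6.06% of all tested genes were called and 2.99% were called lower. The same 2 genes had WT HFD values all below the WT ND values, as had 11.1% of all genes. The members' median difference was −0.37, beside 0.04 over all genes, and 3 of 10 differences were positive, where 55.3% of all genes were. In KO, limma called 0 of 10, against 4.54% of all genes, and 2 of 10 had an unadjusted p under 0.05 (Mmp2 and Mmp3), where 19.9% of all genes had. The members' median there was 0.30, beside 0.05 over all genes, and 8 of 10 were positive, where 57.5% of all genes were. Mmp2 and Mmp3 also had KO HFD values all above the KO ND values, as had 16.3% of all genes. Averaged over genotypes, 2 of 10 were called, both lower, where 13.7% of all genes were called and 6.19% were called lower. An unadjusted p under 0.05 was reached by the same 2 members in WT and in the averaged effect, against 23.0% of all genes in WT and 29.1% in the averaged effect. Here and below, such shares only describe the members, which were chosen with earlier results of these data known.

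Between genotypes on high fat diet limma called 0 of 10 members, against 0.732% of all genes, and 6 of 10 had an unadjusted p under 0.05, where 14.8% of all genes had. The 6 were Mmp3, Mmp14, Adamts1, Timp1, Lox and Loxl1. The difference was positive, higher in KO, for 9 of 10 members, where 53.9% of all genes were positive, and Timp3 was the exception at −0.08 (adjusted p = 0.880). Timp2 and Timp3 each changed sign in 1 alternative. The members' median was 0.83, beside 0.03 over all genes. Mmp3, Adamts1 and Timp1 had KO values all above the WT values, as had 11.0% of all genes. This comparison shares the WT HFD arrays with the WT diet effect, so their values are not independent.

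On normal diet 0 of 10 were called between genotypes by limma and 0 had an unadjusted p under 0.05, where 0.414% of all genes were called and 11.3% had such a p. The members' median was −0.03, beside 0.02 over all genes. Averaged over diets 0 of 10 were called, against 1.61% of all genes, and 4 of 10 had an unadjusted p under 0.05, where 15.3% of all genes had. The interaction called 0 of 10, against 0.141% of all genes, and 4 of 10 had an unadjusted p under 0.05 (Mmp3, Mmp14, Adamts1 and Lox), where 10.4% of all genes had. All 10 interaction differences were positive, from 0.04 for Timp2 to 2.32 for Mmp10, where 51.3% of all genes were positive, and that of Timp2 was negative in 5 of its alternatives.

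**Figure D4:**
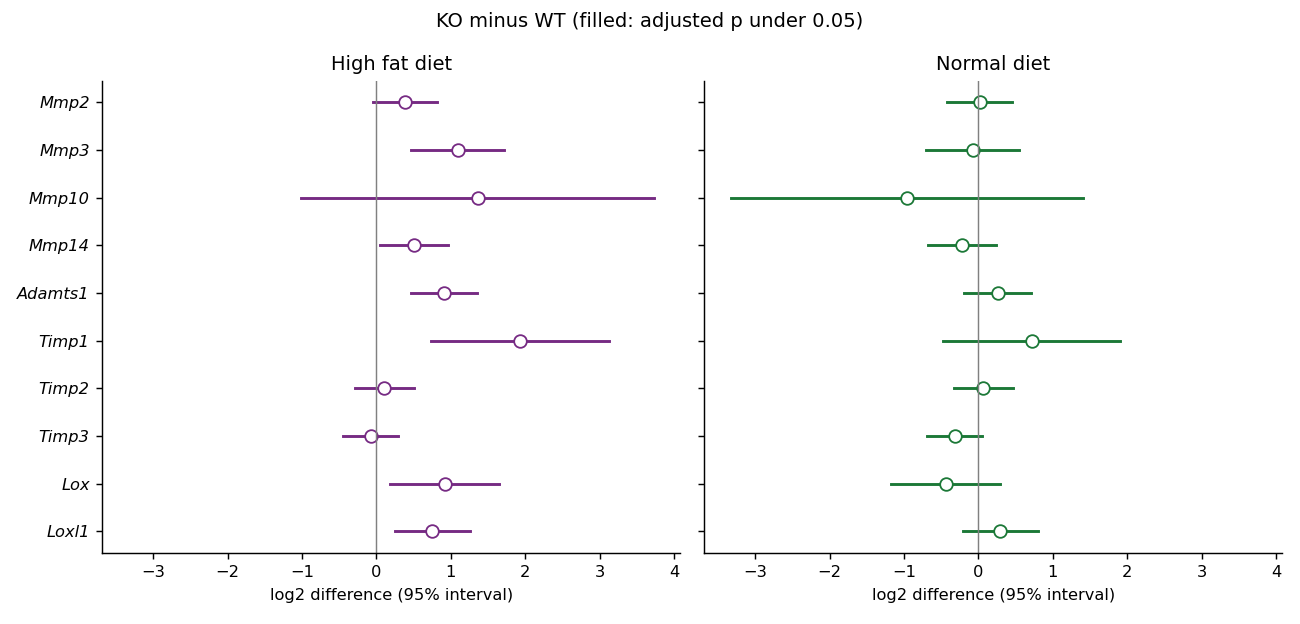
Log2 difference of KO minus WT (horizontal axis) for the 10 genes (vertical axis) on high fat and on normal diet, 3 mice per group. Lines are 95% intervals not adjusted for multiple tests, and open points have an adjusted p of 0.05 or above. All points are open, and on high fat diet 9 of 10 lie right of 0, with Timp1 at 1.93 and Mmp3 at 1.09.

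Some fibroblast markers moved with the genotype difference on high fat diet. The summed linear signal of 6 such markers (Pdgfra, Dcn, Lum, Col1a1, Col3a1 and Postn), all past the filter, was 10338 to 14031 in KO HFD, 8209 to 8659 in KO ND, 6494 to 9168 in WT HFD and 7701 to 8566 in WT ND. Of the 6, Col1a1, Col3a1 and Postn were called higher in KO than in WT on high fat diet, where 0.732% of all genes were called. Lum was not called, though its KO values (9.40 to 9.78) lay above the WT values (8.40 to 8.91). Pdgfra (8.44 to 8.81 in KO, 8.18 to 8.74 in WT) and Dcn (12.18 to 12.39 in KO, 12.03 to 12.34 in WT) overlapped. The 6 macrophage markers (Adgre1, Cd68, Csf1r, Cd163, Mrc1 and Lyz2), all past the filter, summed to 3301 to 5736 in KO HFD, 2207 to 3072 in KO ND, 1754 to 3691 in WT HFD and 3072 to 3478 in WT ND. Of the 6, only Cd68 was called higher in KO on high fat diet. Adgre1 was not called, though its KO values (7.42 to 7.74) lay above the WT values (6.74 to 7.09). Csf1r, Cd163, Mrc1 and Lyz2 overlapped, and Cd163 leaned lower in KO (7.24 to 7.57 against 7.31 to 8.27). The part of either cell type in the members' differences was not tested. For the WT fall of Mmp10 and Lox, 0 of 6 fibroblast and 0 of 6 macrophage markers were called in the same comparison. Of 5 endothelial markers 1, Kdr, was called higher on high fat diet. Over all genes 6.06% were called there. Of the other endothelial markers, Pecam1 leaned lower on high fat diet (6.27 to 6.69 against 6.63 to 7.05), while Cdh5, Tek and Emcn leaned higher. The median difference was −0.1 for fibroblast, −0.36 for macrophage and 0.32 for endothelial markers, beside 0.04 over all genes. Cd68 in WT HFD (6.16 to 6.84) lay below WT ND (7.32 to 8.43), and the other macrophage markers overlapped. The part of these cell types in the fall was not tested. Of 6 adipocyte markers 4 were on the array (Plin1 and Cfd were not), and these summed to 15255 to 16723 in KO HFD, 7038 to 10951 in KO ND, 8527 to 15204 in WT HFD and 7471 to 8917 in WT ND.

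Of 18 other metalloproteinases 5 passed the filter (Mmp9, Mmp11, Mmp17, Mmp23 and Mmp24), and limma called 0 of them in any of the 7 contrasts. Over all genes 0.141% to 13.7% were called, depending on the contrast. Of 25 other ADAMTS and ADAM proteases 13 were tested, and Adamts10 (1.0, SE 0.31, adjusted p = 0.0456) and Adamts12 (0.68, SE 0.21, adjusted p = 0.0481) rose on high fat diet averaged over genotypes. These 2 of 13 stand beside 13.7% of all genes called in that contrast. Adamts10 held dim values, at 3.28 in KO ND replicate 1, under the filter of 3.78, and 3.98 in WT ND replicate 3. The aggrecanase Adamts4 did not pass, at −0.26 in the same comparison (adjusted p = 0.644).

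The fourth inhibitor of the TIMP family, Timp4, rose in WT. It read 9.21, 9.35 and 8.96 in KO HFD mice, 9.53, 9.34 and 10.01 in KO ND mice, 9.54, 9.56 and 9.54 in WT HFD mice, and 9.04, 9.03 and 8.71 in WT ND mice. The WT ND mice were the low group, without overlap with WT HFD, and the KO diets overlapped at their edge. The diet difference was −0.45 in KO (SE 0.16, adjusted p = 0.124) and 0.62 in WT (SE 0.16, adjusted p = 0.0360). The cysteine protease inhibitor Cst3 rose by 0.33 in WT (SE 0.09, adjusted p = 0.0441). These were the 2 of 5 tested other inhibitors called in WT, where 6.06% of all genes were called. The interaction called 0 of the 5, against 0.141% of all genes.

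In WT, where 6.06% of all genes were called, 1 of 9 tested collagen-modifying and crosslinking enzymes was called, the tissue transglutaminase Tgm2. It read 11.03, 10.33 and 10.60 in KO HFD mice, 11.04, 10.80 and 10.81 in KO ND mice, 10.20, 10.33 and 10.08 in WT HFD mice, and 10.73, 11.49 and 11.48 in WT ND mice. The 3 WT HFD values were below all WT ND values, as for Lox. The WT difference was −1.03 (SE 0.20, adjusted p = 0.0107) and the KO difference −0.23 (SE 0.20, adjusted p = 0.559). The interaction called 0 of these 9 enzymes, against 0.141% of all genes. Of 9 tested genes of the plasminogen system and of procollagen cleavage, Pcolce, the enhancer of procollagen C-proteinase, rose in KO (0.97, SE 0.22, adjusted p = 0.0265), while Plau, the urokinase, did not pass (0.23, adjusted p = 0.775). Over all genes 4.54% were called in KO.

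Several substrates of these enzymes rose in KO. Of 16 tested substrate genes 5 rose on high fat diet in KO (Col1a1, Col1a2, Col3a1, Col5a1 and the proteoglycan Bgn) and 0 in WT. Over all genes 4.54% were called in KO and 6.06% in WT. Of the 5 substrates, Col3a1 differed by 1.24 in KO (adjusted p = 0.0166) and 0.11 in WT (adjusted p = 0.845). Between genotypes on high fat diet 3 of 16 were higher in KO, Col1a1 by 1.47 (adjusted p = 0.0105), Col3a1 by 1.5 (adjusted p = 0.0238) and Bgn by 1.07 (adjusted p = 0.0306). Over all genes 0.732% were called in that comparison. The interaction called 0 of 16, against 0.141% of all genes.

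Of 16 tested AP-1 factors and known inducers of matrix genes, 7 fell and 1 rose on high fat diet in WT, and 2 fell in KO. Over all genes 6.06% were called in WT and 4.54% in KO. Averaged over genotypes 7 fell, Fosl2 among them, and 1 rose, where 13.7% of all genes were called. The interaction called 0 of 16, against 0.141% of all genes. The fallers in WT were Fos (−1.44), Jun (−0.62), Junb (−1.75), Jund (−0.60), the zinc finger factor Egr1 (−1.93) and the matricellular genes Ccn1 (−1.47) and Ccn2 (−2.07), and the transcription factor Ets1 rose (0.94). The fallers in KO were Jun (−1.07) and Ccn1 (−1.94). Fos, Junb and Ccn2 were not called in KO, though all their KO HFD values lay below their KO ND values. Egr1 and Jund overlapped between the KO diets. On high fat diet Egr1 was called higher in KO (8.93 to 10.24) than in WT (7.43 to 8.46), where 0.732% of all genes were called. Over all 16 tested genes of this list, called or not, the median difference was −1.34 in WT and −0.51 in KO, beside −0.37 and 0.30 for the 10 members. Whether these changes bear on Mmp10 or Lox was not tested.

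The genes most like Lox over the 12 arrays by Pearson correlation were Mustn1 (r = 0.929), a small nuclear protein of muscle and skeleton, Tgm2 (r = 0.928) and Klhl40 (r = 0.922), a muscle protein of the sarcomere. Mustn1 read 11.48 to 13.32 in KO HFD, 12.81 to 13.04 in KO ND, 9.76 to 11.28 in WT HFD and 12.25 to 13.23 in WT ND, so that WT HFD was its low group as for Lox. Those most like Mmp10 were Ehd4 (r = 0.962), Xbp1 (r = 0.947) and Mknk2 (r = 0.944). Ehd4, an endosomal protein, read 8.43 to 9.63 in KO HFD, 9.19 to 9.70 in KO ND, 8.60 to 8.99 in WT HFD and 9.05 to 9.79 in WT ND. The points share 4 groups and the genes are the extremes of all tested, so these values only describe likeness.

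**Figure D5:**
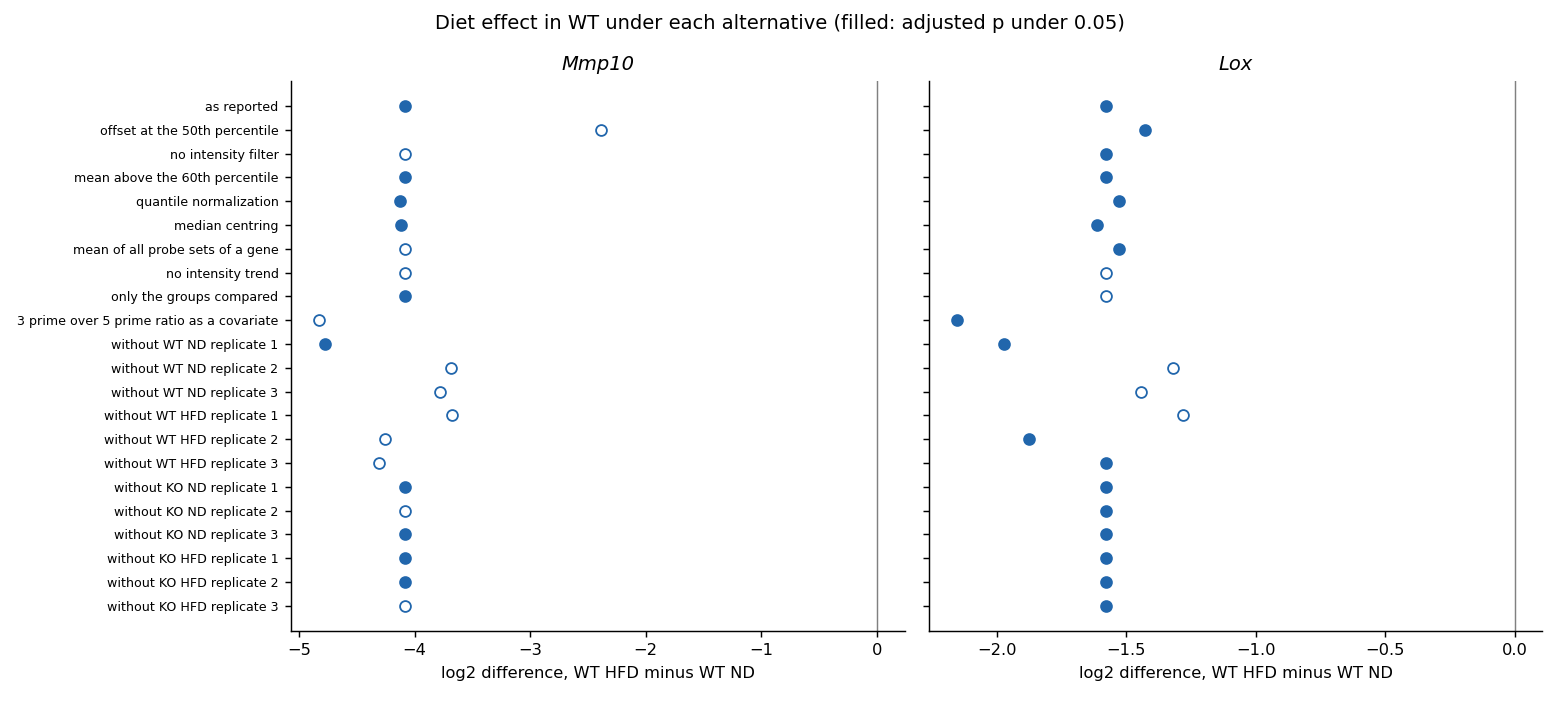
Log2 difference of WT HFD minus WT ND (horizontal axis) for Mmp10 and Lox in the reported fit and each alternative (vertical axis). Filled points have an adjusted p under 0.05, and the 3 prime over 5 prime row is the adjustment for RNA integrity. All differences are negative, from −4.83 to −2.39 for Mmp10 and from −2.15 to −1.28 for Lox, and the call changes with the mouse left out.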

How the data were processed

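Muscle RNA of 12 mice was measured on one-colour arrays. The authors deposited log2 signals from MAS5, per the submitters' processing notes, which name no version. After conversion to linear signal, each array had a trimmed mean (2 to 98%) of 100.0, and no further scaling was applied. Of 45101 probe sets 64 controls were removed. Gene symbols came from the platform annotation: 34945 probe sets had 1 symbol, 932 several and 9160 none. Probe sets with a mean above the median of 3.78 were kept, and each of the 11345 genes left was read from its brightest one.

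A single model with 4 group means was fitted in limma 3.58.1 (R 4.3.3) with an intensity trend; the degrees of freedom were 8 (residual) and 5.42 (prior). P-values were adjusted by Benjamini-Hochberg in each of 7 contrasts. Intervals are 95% and unadjusted. The number of arrays limits the precision. In simulated data with normal noise, 67, 67 and 66 of the 11345 genes were changed by 1.5, 2 and 4-fold. These changes were found in 31.3%, 65.7% and 87.9% of cases for the WT diet contrast and in 5.97%, 28.4% and 69.7% for the interaction. The share of truly changed genes in the real data is not known, so these rates may not carry over. Tables and figures used Python 3.11.15, pandas 2.3.3, numpy 2.4.6 and matplotlib 3.10.9. Members and lists were chosen with earlier results of these data known. Other genes named are cell type markers, list members past the threshold, examples that did not pass, and the 3 genes of highest correlation with each called member. Not every list member past the threshold is described above. Plod3, Fap and Col6a1 were called higher on high fat diet only averaged over genotypes, where 13.7% of all genes were called. Alternatives were an offset, other filters, quantile normalization, median centring, means over probe sets, no trend, only the groups compared, an RNA integrity covariate and each mouse left out. Tests of each probe set were added after seeing the data. No chromosome 18 sequence is printed.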

Additional observations from a re-analysis of the deposited data

How the results depend on the processing

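Of 1440 values for single members under the alternatives named above 1403 stayed on their side of the threshold, 32 lost a call and 5 gained one. The sign differed from the reported fit in 48 of them, spread over 21 of 70 results, of which 0 were called in either fit. The only called member results, 4 in all (Mmp10 and Lox, in WT and averaged over genotypes), kept their call in 50 of 82 alternatives. Without WT ND replicate 2, WT ND replicate 3 or WT HFD replicate 1, and without an intensity trend, 0 members were called in WT. Mmp10 in WT was also lost with no intensity filter (adjusted p = 0.0574) and with means over probe sets (0.0511), and Lox in WT with only the groups compared (0.0524). Adamts1 was called higher in KO than in WT, averaged over diets, with the RNA integrity covariate (0.65, adjusted p = 0.0495) and without WT ND replicate 1 (0.66, adjusted p = 0.0444).

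Counts of called genes over the whole array were 687 for the diet in WT, 515 for the diet in KO, 1552 for the averaged diet, 83 for genotype on high fat diet, 47 on normal diet, 183 for the averaged genotype and 16 for the interaction. With the RNA integrity covariate they were 186 (WT diet), 265 (KO diet), 522 (averaged diet), 25 (genotype, normal diet) and 104 (averaged genotype). Without a trend they were 311 (WT diet), 232 (KO diet), 7 (genotype, high fat diet), 19 (genotype, normal diet), 61 (averaged genotype) and 1 (interaction). Median centring gave 448 (WT diet), 41 (genotype, high fat diet), 22 (genotype, normal diet) and 7 (interaction), with a share of higher calls of 32.1% against 50.7% for the diet in WT, 24.0% against 58.6% in KO, 28.9% against 54.8% averaged, 56.1% against 69.9% for genotype on high fat diet and 85.7% against 56.2% for the interaction. Means over probe sets gave 26 (genotype, normal diet) and 10 (interaction), quantile normalization 10 (interaction), the offset 144 (genotype, high fat diet), and only the groups compared 383 (WT diet) and 29 (genotype, high fat diet). Leaving out each mouse gave 199 to 918 (WT diet), 133 to 556 (KO diet), 1021 to 1689 (averaged diet), 15 to 237 (genotype, high fat diet), 9 to 68 (genotype, normal diet), 66 to 287 (averaged genotype) and 4 to 31 (interaction). The RNA integrity covariate did not overlap between WT ND and WT HFD, so in WT it cannot be cleanly separated from diet. The causes of these changes in count were not tested. No paired analysis was possible because the mouse numbers of the groups share no pairs. Signals under the filter, such as Mmp10 in WT HFD, limit the precision.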
